A study of Mus musculus with 117 samples.

Results

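Hepatocyte chromatin of C57BL/6J, the strain of the mouse reference genome, was compared with that of DBA/2J, another classical inbred strain, bin by bin on chromosomes 1 to 19. Hepatocytes are the main cell type of the liver. Each strain was represented by 13 chromatin immunoprecipitation sequencing (ChIP-seq) libraries from livers of females 12 weeks old, with H3K4me1, H3K4me3, H3K27ac and H3K27me3 each profiled in 3 mice and 1 input library. These 26 libraries were part of 117 from 9 strains, and the other 7 strains (the classical strains 129S1/SvImJ, A/J, NOD/ShiLtJ and NZO/HlLtJ, and the wild-derived WSB/EiJ, CAST/EiJ and PWK/PhJ) were used here to place each difference. The authors' deposited file of a strain is a single segmentation into 14 numbered chromatin states, so each strain gave 1 value, mice could not be compared, and the depth behind a state was unknown. The comparison covered 12313718 bins of 200 bp. Bins in states 1, 2 or 3 were called active and bins in states 13 or 14 silent. Runs of bins that were active in C57BL/6J and silent in DBA/2J over 1 kb or more gave 581 active-to-silent segments, and the reverse gave 507 silent-to-active segments, 1088 in all. The same rule gave 80330 segments over all 36 strain pairs.

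A chromatin state stands for a recurring combination of histone marks. H3K4me3 is known from gene starts, H3K4me1 from enhancers, H3K27ac from active starts and enhancers, and H3K27me3 from genes silenced by Polycomb proteins, many of them regulators of development. C57BL/6J and DBA/2J are the parents of the BXD recombinant inbred mice, in which many differences in liver gene expression and metabolism have been mapped to the genome.

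The names active and silent rest on landmark genes, since the mark content of the states is not given in the sources used here. Within 1 kb of the start sites of 19 hepatocyte-expressed genes such as Alb (albumin) and Apob (the main protein of very low density lipoprotein), 99.6% of 229 bins were active in C57BL/6J and 99.1% in DBA/2J. In the same order of strains, state 1 held 44.1% and 39.3% of these bins and state 3 held 52.8% and 57.6%. State 2 held only 2.62% and 2.18%. At developmental regulators such as Pax6 and Hoxa13, none of the 226 bins was active in either strain, and state 13 held 57.5% of them in C57BL/6J and 54.4% in DBA/2J. State 14 held none of them. The states were named from genes of these kinds, so these shares are no independent check. Both panels bear little on states 2 and 14, which make up most of the segments described below. Markers of other liver cells were mostly not active. At Kupffer cell and leukocyte genes such as Clec4f and Ptprc, 6.91% of 188 bins were active in both strains. At endothelial genes such as Stab2 and Cdh5 the share was 25% in C57BL/6J and 30.3% in DBA/2J, and at bile duct and stellate cell genes such as Krt19 and Lrat it was 12.7% and 7.33%. The silent shares of the 3 panels differed. They were 86.2% and 81.4% at Kupffer cell and leukocyte genes and 59.3% and 62.7% at bile duct and stellate cell genes. At endothelial genes they were only 29.5% and 24.2%, close to the active shares. State 3 centred on starts. It held 40.2% of the bins with a start site of a protein-coding gene in C57BL/6J and 41.2% in DBA/2J, and 5.33% and 6.44% of the bins 1 kb inside the gene. State 1 lay beside it, with 11.2% and 9.43% at the start and 32.8% and 28.7% at 1 kb inside. State 2 held 1.48% and 1.14% of the start bins. State 14 also covered 99.9996% and 100% of the first 3 Mb of the chromosomes, which is not assembled in this build. A stretch of state 14 in 1 strain may therefore be unmarked chromatin, or sequence to which no reads of that strain were assigned, and these cannot be told apart in a segmentation.

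The sequences that the results turn on most directly are start regions that lay inside a segment, so that the start was active in 1 strain and silent in the other. Of the 16457 protein-coding genes with a start site in the RefSeq promoter table (GRCm38.p6, the assembly of mm10), only 13 had one inside an active-to-silent segment and 4 inside a silent-to-active segment. The 250 bases upstream of the start are shown 5′ to 3′ for the 3 longest such segments of each direction and for Cyp2c39, a cytochrome P450 gene of the panels. Capitals mark every match on either strand to one of 5 motifs. These are the TATA box, spelled TATAAA, the CCAAT box, the GC box, spelled GGGCGG, a forkhead motif, spelled TGTTTAC, and an HNF4 motif, spelled CAAAGTC. Matches that adjoin or overlap run together.
Cela2a: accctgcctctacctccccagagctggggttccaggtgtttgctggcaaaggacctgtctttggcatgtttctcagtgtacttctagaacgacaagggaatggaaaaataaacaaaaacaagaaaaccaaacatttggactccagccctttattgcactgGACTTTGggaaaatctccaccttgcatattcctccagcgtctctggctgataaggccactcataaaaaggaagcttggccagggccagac
Syne4: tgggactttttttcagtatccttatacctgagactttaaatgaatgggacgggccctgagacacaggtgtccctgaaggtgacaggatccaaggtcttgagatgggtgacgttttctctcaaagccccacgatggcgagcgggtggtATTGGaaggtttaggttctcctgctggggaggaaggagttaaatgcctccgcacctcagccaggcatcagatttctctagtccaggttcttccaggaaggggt
Trim12a: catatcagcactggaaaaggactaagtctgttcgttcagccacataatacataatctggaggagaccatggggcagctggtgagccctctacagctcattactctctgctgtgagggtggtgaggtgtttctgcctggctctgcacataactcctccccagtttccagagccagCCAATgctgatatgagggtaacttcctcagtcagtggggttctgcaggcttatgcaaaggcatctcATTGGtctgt
Cyp2c39: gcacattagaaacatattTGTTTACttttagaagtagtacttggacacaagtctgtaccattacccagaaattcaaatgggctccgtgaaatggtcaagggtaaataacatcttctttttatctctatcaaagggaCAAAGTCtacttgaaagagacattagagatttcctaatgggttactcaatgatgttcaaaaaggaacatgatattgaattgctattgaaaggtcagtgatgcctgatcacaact
Pram1: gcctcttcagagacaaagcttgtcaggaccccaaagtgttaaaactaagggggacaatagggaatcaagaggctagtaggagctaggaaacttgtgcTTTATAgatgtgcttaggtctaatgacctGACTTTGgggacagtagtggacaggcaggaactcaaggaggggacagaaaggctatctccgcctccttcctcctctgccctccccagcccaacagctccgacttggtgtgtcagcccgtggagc
Mrap2: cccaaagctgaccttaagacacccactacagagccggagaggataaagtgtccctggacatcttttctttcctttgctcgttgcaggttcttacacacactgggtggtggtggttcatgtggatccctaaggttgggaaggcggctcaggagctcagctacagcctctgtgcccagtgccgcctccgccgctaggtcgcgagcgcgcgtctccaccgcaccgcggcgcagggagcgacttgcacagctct
Zfp996: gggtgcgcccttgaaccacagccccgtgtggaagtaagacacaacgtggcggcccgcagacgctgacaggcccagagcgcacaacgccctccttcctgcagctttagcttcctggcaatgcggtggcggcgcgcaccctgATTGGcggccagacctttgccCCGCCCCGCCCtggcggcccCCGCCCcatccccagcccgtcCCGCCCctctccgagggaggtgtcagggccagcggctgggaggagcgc
The windows lie at chr4:141826006-141826255 on the minus strand (Cela2a), chr7:30314566-30314815 on the plus strand (Syne4), chr7:104315496-104315745 on the minus strand (Trim12a), chr19:39347096-39347345 on the plus strand (Cyp2c39), chr17:33637845-33638094 on the plus strand (Pram1), chr9:87144056-87144305 on the plus strand (Mrap2) and chr12:18387241-18387490 on the plus strand (Zfp996). Among 31365 such windows of the table, 12.4% held the TATA box, 33.7% the CCAAT box, 33.0% the GC box, 3.21% the forkhead motif and 3.87% the HNF4 motif. Cyp2c39 held the forkhead motif 232 bases and the HNF4 motif 114 bases upstream of the start used here. That start is the upstream end of an annotated span of 222223 bp. Whether it is the start used in liver is not known from these files. Cela2a and Pram1 held the HNF4 motif, Pram1 also the TATA box on the opposite strand, and Syne4 and Trim12a the CCAAT box. Zfp996 held the CCAAT box and 4 matches to the GC box, and Mrap2 held none of the 5. The number of CpG dinucleotides was 1 in Trim12a and Cyp2c39, 2 in Cela2a, 3 in Pram1 and 6 in Syne4, against 16 in Mrap2 and 22 in Zfp996. The median of all windows was 6. Of the 7 windows, the 2 richest in CpG belonged to starts active in DBA/2J, but Pram1, also active there, lay below the median. Counts are given for these 7 windows only, so no difference between the directions follows.

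The states of all 9 strains at these starts were then read. Within any segment the rule itself sets C57BL/6J and DBA/2J, so only the other 7 strains are informative there. At Trim12a, a member of the TRIM family of antiviral proteins, the 2800-bp segment chr7:104313801-104316600 over the start was active in C57BL/6J and had no active bin in DBA/2J, 129S1/SvImJ, A/J, NOD/ShiLtJ and PWK/PhJ. It was active over 28.6% of its bins in CAST/EiJ and 21.4% in NZO/HlLtJ and WSB/EiJ. Its neighbour Trim30d had a 2200-bp segment over its start that was also active in PWK/PhJ, over 81.8% of the bins, and in NOD/ShiLtJ, over 63.6%. Both genes lie in a family of close copies, so the placement of reads between copies is uncertain. At Cela2a, an elastase gene, the segment was also active in NOD/ShiLtJ (100%), A/J (94.1%) and 129S1/SvImJ (88.2%) and in no bin of the other 4 strains. At Syne4, a nuclear envelope gene, the 2800-bp segment was in state 1 in 13 of 14 bins in C57BL/6J. It was also active in 129S1/SvImJ, NOD/ShiLtJ and WSB/EiJ (100%), NZO/HlLtJ (85.7%) and PWK/PhJ (64.3%), and in no bin of DBA/2J, A/J and CAST/EiJ. At this annotated start of Cyp2c39 only C57BL/6J, CAST/EiJ and PWK/PhJ were active, each over all bins of the 1400-bp segment, and the other 6 strains over none. The Cyp2c genes are also close copies. At Pram1, an adaptor gene of myeloid cells, the segment was active in DBA/2J, in CAST/EiJ over 91.7% of its bins, in NZO/HlLtJ over 50% and in PWK/PhJ over 41.7%, and in no bin of the other 5 strains. At Zfp996, a zinc finger gene, DBA/2J alone of the 9 strains was active over the start, with state 3 in 5 of the 7 bins. At Mrap2, which encodes an accessory protein of melanocortin receptors, the start was active in DBA/2J and over 70.0% of the bins in NZO/HlLtJ, and state 13 was the most frequent state in C57BL/6J, 129S1/SvImJ, A/J, NOD/ShiLtJ, PWK/PhJ and WSB/EiJ. Among active-to-silent segments over a start of a protein-coding gene, that of Crygn, a crystallin gene, had the most state 3, 5 of 6 bins. Eps8l1, an actin regulator gene, was active over its start in C57BL/6J alone of the 9 strains.

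Over all 20063 start sites of protein-coding genes, 82.4% of the start bins had the same state in both strains. The start bin was active in both at 10121 sites and silent in both at 6514. It was active in C57BL/6J and silent in DBA/2J at 30 sites (0.15% of the sites tested) and the reverse at 19 (0.0947%). Complete exchanges at starts were thus few in both directions.

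On the autosomes 88.1% of the bins had the same state, and 1459197 bins (11.9%) differed. Cohen's kappa, the agreement corrected for what the state frequencies give by chance, was 0.683. This was the second highest of the 36 pairs, which ranged from 0.474 to 0.699. The table of exchanges was dominated by bins outside the active states. States 13 and 14 traded places in 736243 bins, 50.5% of all differing bins, and nearly evenly: 365379 bins were in state 13 in C57BL/6J and 14 in DBA/2J, and 370864 the reverse.

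**Figure D1:**
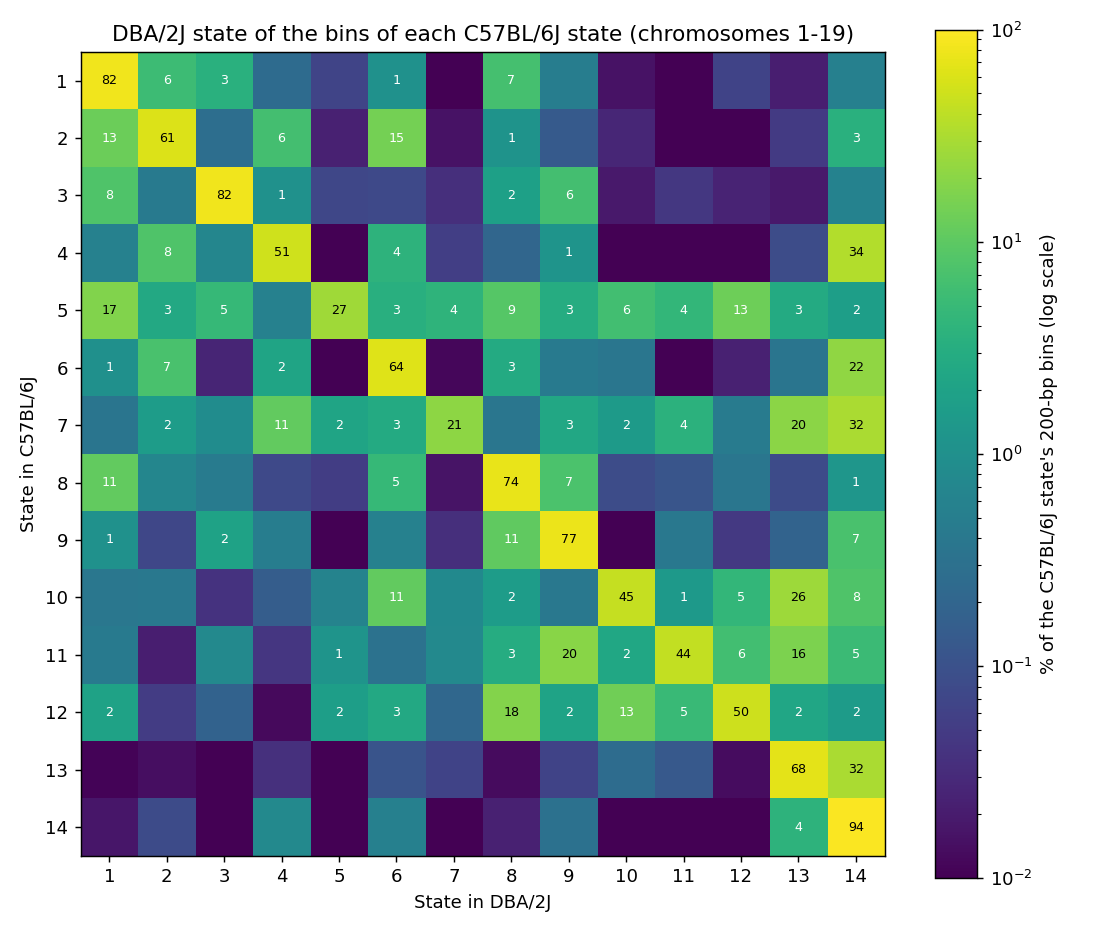
Rows are states in C57BL/6J, columns states in DBA/2J, and colour is the percentage of the row's 200-bp bins on chromosomes 1 to 19 on a log scale, with values of at least 1% written in. The diagonal is 94.4% for state 14 and 81.8% for state 1 but 21.1% for state 7, and bins of state 4 fall mainly on state 4 (51.1%) and state 14 (34.3%).

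Several other exchanges were uneven. State 4 in C57BL/6J met state 14 in DBA/2J in 135450 bins, and the reverse held in 73635, a ratio of 1.84. State 9 went the other way: 29553 bins were in state 14 in C57BL/6J and 9 in DBA/2J, and 4764 the reverse, a ratio of 6.20. Within and beside the active states, 41968 bins were in state 2 in C57BL/6J and state 1 in DBA/2J, and 15844 the reverse (2.65). From state 2 in C57BL/6J, 47967 bins were in state 6 in DBA/2J, against 20839 the reverse (2.30). State 1 in C57BL/6J met state 8 in DBA/2J in 19267 bins and the reverse held in 6743 (2.86). State 1 met state 3 in 9774 bins and state 3 met state 1 in 3805 (2.57).

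The uneven exchanges went with the overall state shares. State 2 covered 2.69% of the autosomal bins in C57BL/6J, the highest of the 9 strains, and 2.27% in DBA/2J, which ranked 6. State 4 covered 3.21% and 2.48%, with the other 7 strains between 1.89% and 3.49%. State 9 covered 0.549% and 0.806%, within the range of 0.271% to 1.59% in the others. State 5 covered 0.0377% in C57BL/6J and 0.0175% in DBA/2J, ranks 2 and 8. State 13 was lower in both than in any other strain, at 9.40% and 9.44% against 10.01% to 13.1%, and state 14 was higher in both, at 78.2% and 78.6% against at most 77.8%. With 1 segmentation per strain, a shift that touches all bins of a state and differences at single places cannot be told apart from these shares.

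**Figure D2:**
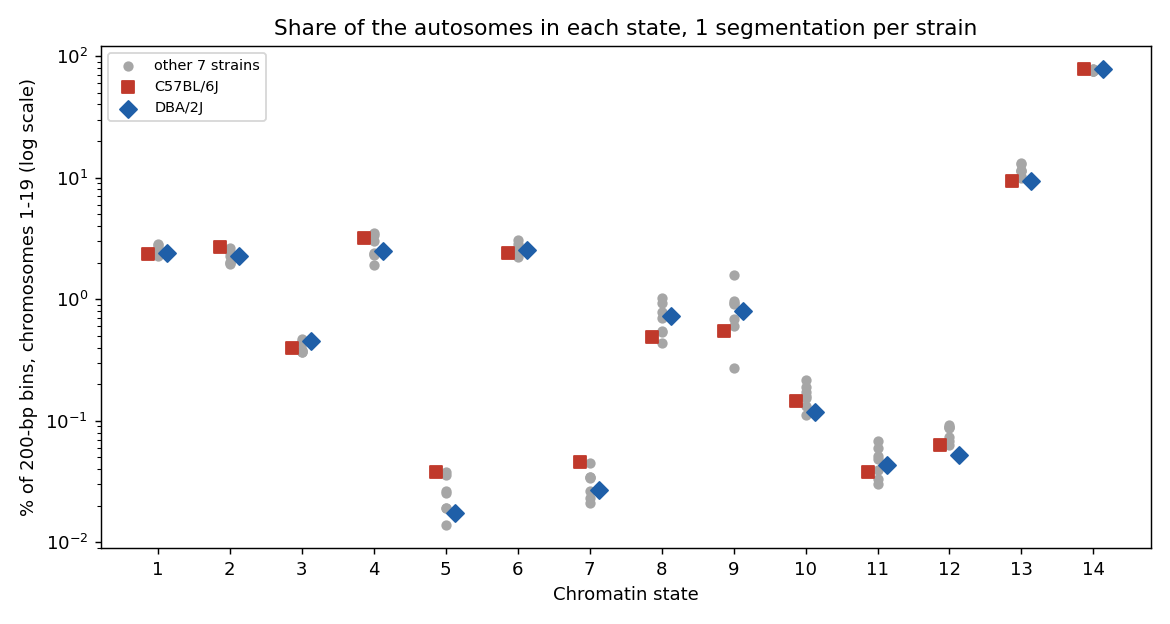
Each point is the percentage of 200-bp bins of chromosomes 1 to 19 in a state (log axis) in 1 strain, with C57BL/6J as red squares, DBA/2J as blue diamonds and the other 7 strains in grey. C57BL/6J lies above DBA/2J in states 2, 4 and 5 and below it in states 8 and 9, and both lie below the other strains in state 13.

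Exchanges between active and silent were rare. Of 748646 bins active in either strain, 73.5% were active in both, and 23.3% met a state from 4 to 12 in the other strain. Bins active in C57BL/6J and silent in DBA/2J numbered 13386 (0.109% of all bins), which is 2.01% of the active bins of C57BL/6J. Bins silent in C57BL/6J and active in DBA/2J numbered 10669 (0.0866%), 1.69% of the active bins of DBA/2J. Runs of 1 kb or more held 33.8% of the former and 36.4% of the latter. The 581 active-to-silent segments summed to 904000 bp with a median of 1200 bp, and the longest was 5800 bp. The 507 silent-to-active segments summed to 776400 bp with the same median, and the longest was 11000 bp. Just inside the length threshold, 178 and 181 segments were 1000 bp long, and just outside it 285 and 226 runs were 800 bp long. With state 4 counted as active, the numbers became 11386 and 6448. The sum of 1088 segments ranked 11 from the lowest of the 36 pairs, whose median was 1452.

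The segments were made mostly of state 2. It held 74.6% of the active-side bins of active-to-silent segments and 69.6% of silent-to-active segments, while in stretches of 1 kb or more that were active in both strains it held 39.96%. State 3 held 1.42% and 5.54%, against 8.96% in the shared stretches, and occurred in 26 active-to-silent and 61 silent-to-active segments. The silent side was state 14 in 97.0% and 95.4% of the bins, and state 13 in 2.99% and 4.59%. The unbroken silent stretch around a segment had a median length of 12200 bp in DBA/2J and 12600 bp in C57BL/6J. The nearest bin that was active in the silent strain lay a median of 6000 bp and 6400 bp away, and within 1 kb in 20.7% and 18.9% of segments.

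Segments held starts, and overlapped protein-coding genes, less often than stretches active in both strains. A start site of any annotated gene lay in 22 active-to-silent segments (3.87%) and 8 silent-to-active segments (1.60%) on the 18 chromosomes with start sites in the table. Among segments of 1 to 2 kb these shares were 3.36% and 1.63%, against 19.3% of the stretches of the same length range active in both strains. Of all segments, 60.2% and 54.2% overlapped a protein-coding gene, against 73.3% of the shared stretches of 1 kb or more. From 1 to 2 kb these shares were 58.6% and 54.9%, against 68.7%. The median distance to a start site was 19833 bp and 23399 bp, against 10217 bp for shared stretches.

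**Figure D3:**
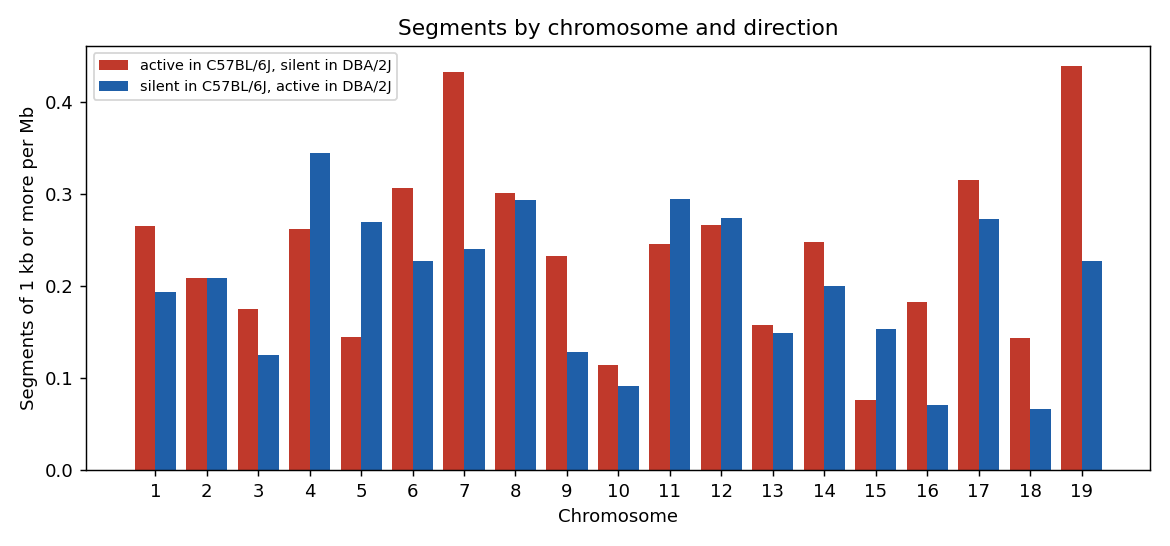
Bars are the number of segments of 1 kb or more per Mb on each autosome, red for active in C57BL/6J and silent in DBA/2J and blue for the reverse. Chromosomes 19 and 7 are the highest in red (0.440 and 0.433 per Mb) and chromosome 4 in blue (0.345), while chromosome 18 is the lowest in blue (0.0662) and chromosome 15 in red (0.0769).

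Chromosome 7 carried 63 active-to-silent and 35 silent-to-active segments, the most of any chromosome in sum. Chromosome 16 had 18 against 7, chromosome 5 had 22 against 41 and chromosome 15 had 8 against 16. Relative to the bins active in either strain, the segments took 19 of 1000 bins on chromosome 7 and 5.22 of 1000 on chromosome 10, the highest and the lowest. Segments of 1 direction no more than 50 kb apart formed 440 and 386 groups, of which 354 and 309 were single segments and 32 and 26 held at least 3.

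The 7 other strains were outside the rule that chose the segments. A strain was counted as active at a segment where at least 50% of its bins were active. At active-to-silent segments the other strains were active over 34.8% ± 5.60 of the bins (SD, n = 7 strains), from 26.04% in PWK/PhJ to 42.3% in 129S1/SvImJ. At silent-to-active segments they were active over 29.7% ± 3.66, from 25.5% in CAST/EiJ to 34.1% in 129S1/SvImJ. The difference was 5.08 percentage points ± 3.22 in favour of active-to-silent segments and had the same sign in 7 of 7 (p = 0.0156 by an exact permutation of signs, two-sided, which is the lowest value this number of strains can give). It was smallest in PWK/PhJ (0.357 points) and largest in WSB/EiJ (8.92 points). With state 4 counted as active it was 1.11 points, with an exact permutation p of 0.562, so the difference depends on how active is defined. In stretches active in both C57BL/6J and DBA/2J, the other strains were active over 86.6% to 96.7% of the bins.

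**Figure D4:**
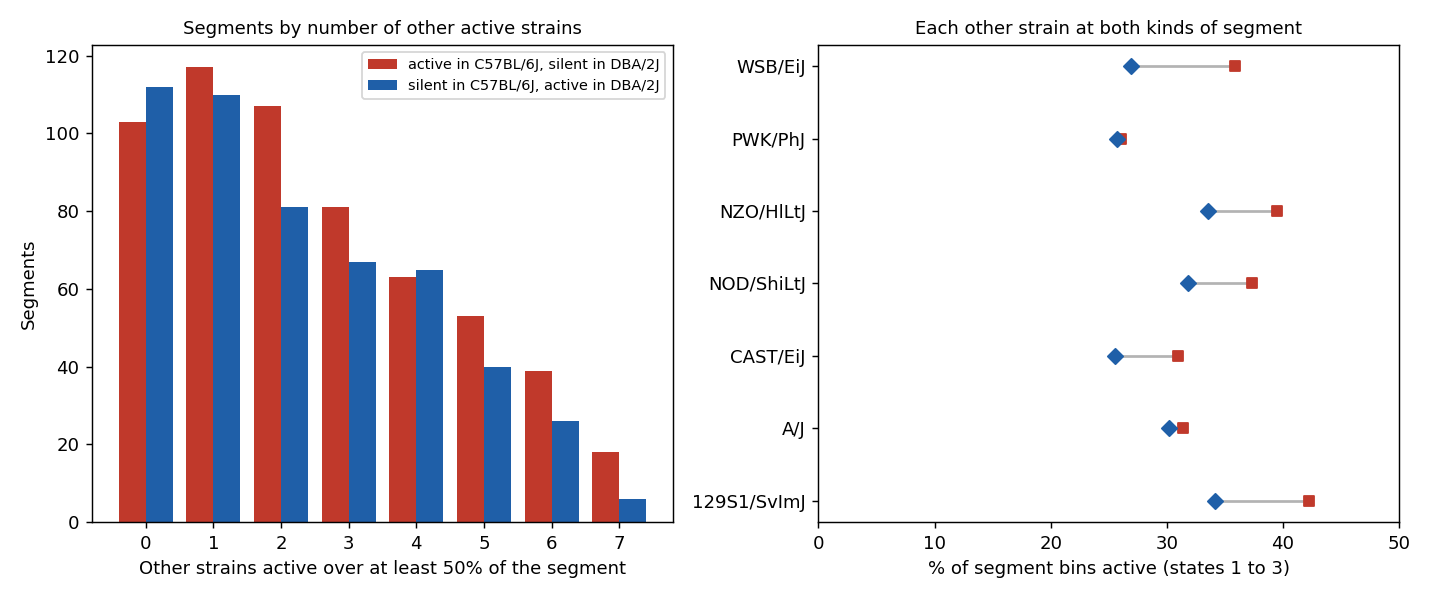
Left, bars count segments by how many of the other 7 strains were active over at least 50% of the segment. Right, each row is 1 other strain, and squares and diamonds give the percentage of bins active at active-to-silent and silent-to-active segments; squares lie to the right of diamonds in all 7 strains, by 0.357 to 8.92 points, and bars fall from 103 and 112 segments with no other active strain to 18 and 6 with all 7.

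C57BL/6J alone was active at 103 active-to-silent segments (17.7%), and DBA/2J alone at 112 silent-to-active segments (22.1%). DBA/2J alone was silent at 18 segments and C57BL/6J alone at 6. Most segments split the other strains. Of the 7, 3 were active at 81 active-to-silent and 67 silent-to-active segments, and 4 at 63 and 65. Genome-wide, the other strains had a kappa of 0.635 ± 0.0590 with C57BL/6J and 0.626 ± 0.0566 with DBA/2J (SD, n = 7). The difference of 0.00932 ± 0.0107, higher with C57BL/6J, was positive in 6 of 7 strains and did not pass the threshold (p = 0.0625 by the same exact permutation). The exception was NZO/HlLtJ at -0.00524. Without it the mean was 0.0118, but the remaining strains then share 1 sign, which alone fixes the exact permutation p at 0.0312. That p adds no support. With states 13 and 14 merged the difference was 0.00128 (exact permutation p = 0.797).

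The active-to-silent segments touched 273 of 20665 protein-coding genes (1.32%), counting the gene and 1 kb to each side, and the silent-to-active segments touched 226 (1.09%). The sets shared 14 genes, among them Fto, Ptprg and Sox5. Touched genes were long: their median lengths were 78.6 kb and 77.3 kb, against 17.5 kb for all protein-coding genes. A longer gene has more bases that a segment can touch, so the way of counting itself favours long genes. No length-matched set was compared.

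Fez2, an adaptor of axon growth and intracellular transport, had the most active-to-silent sequence, 14800 bp in 7 segments from chr17:78378801-78406800. Over these bins C57BL/6J was active at 100%, A/J at 91.9%, NOD/ShiLtJ at 87.8%, WSB/EiJ at 85.1%, NZO/HlLtJ at 82.4% and 129S1/SvImJ at 81.1%. DBA/2J was at 0%, PWK/PhJ at 1.35% and CAST/EiJ at 8.11%. The rule sets the values of C57BL/6J and DBA/2J within segments. Over the whole span of the 7 segments C57BL/6J was at 63.6% and DBA/2J at 2.14%, with PWK/PhJ at 3.57% and CAST/EiJ at 7.86%. DBA/2J here went with both of these wild-derived strains.

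St3gal4, which adds sialic acid to glycans of secreted proteins, showed a different strain pattern. Its 4 segments of 13000 bp in chr9:35070201-35093200 were active in C57BL/6J alone, and every other strain was at most at 3.08%. The silent stretch around the longest segment began at 35071801 in DBA/2J, 129S1/SvImJ, A/J, CAST/EiJ, NOD/ShiLtJ and WSB/EiJ, and it was 21400 bp long in DBA/2J, A/J and NOD/ShiLtJ. The sequence of such a stretch in each strain is not known from the segmentations, so absence of marks and absence of sequence cannot be told apart here. A further group of 4 segments active in C57BL/6J alone lay at chr19:17283001-17322000, 9600 bp in all, where the other 8 strains were at 0%; its longest segment, 5800 bp, was 4141 bp from Gcnt1, a gene for glycan branching.

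Around Cyp2a22, 8 segments of 16000 bp spanned chr7:26876401-26955200, and all 7 other strains were active over part of them. The rule itself sets C57BL/6J at 100% and DBA/2J at 0% within segments. Over the whole span DBA/2J was at 7.61% and C57BL/6J at 39.1%. The other 7 strains lay there between 29.7% (PWK/PhJ) and 42.1% (129S1/SvImJ). Over the segments 129S1/SvImJ and WSB/EiJ were active at 97.5%, A/J at 87.5%, NOD/ShiLtJ at 76.2%, NZO/HlLtJ at 68.8%, CAST/EiJ at 62.5% and PWK/PhJ at 48.8%. Cyp2a22 is a cytochrome P450 gene among close copies such as Cyp2a5, so reads may not be placed uniquely. A second group of this kind, with 4 segments of 11600 bp, lay at chr6:72026601-72067200 with no protein-coding gene within 1 kb. Its near end was 30352 bp from St3gal5, a gene of ganglioside synthesis. The 7 other strains were active over 72.4% (CAST/EiJ) to 100% (NOD/ShiLtJ) of these bins and DBA/2J over none. At Fmo4, a flavin monooxygenase gene, DBA/2J was silent in a 1600-bp segment that was 100% active in all 8 other strains.

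Ildr2, also called Lisch-like, was cloned as a candidate diabetes modifier from a cross of C57BL/6J with DBA/2J. Its 3 segments of 8200 bp held 100% active bins in C57BL/6J and 129S1/SvImJ, 73.2% in A/J and NZO/HlLtJ, 58.5% in WSB/EiJ, 36.6% in CAST/EiJ, 7.32% in NOD/ShiLtJ and none in DBA/2J and PWK/PhJ. Within segments the rule itself fixes C57BL/6J at 100% and DBA/2J at 0%. Over the whole span of the 3 segments, the range was 17.5% (DBA/2J) to 65.0% (129S1/SvImJ), with C57BL/6J at 51.9%. Fto, an RNA demethylase gene linked to body weight, had 6 segments of 9000 bp that were active in C57BL/6J and over 53.3% in A/J, and at most 28.9% in any other strain. Cep85, a centrosome gene, shared its 8800 bp with NZO/HlLtJ (93.2%), and Skint6, of the Skint immune gene family, shared 6600 bp with NZO/HlLtJ alone (100%, against 0% in the other 6); the Skint genes are close copies, so read placement is uncertain. Nhsl1, a regulator of cell migration, had 7800 bp that were silent in A/J as in DBA/2J and between 35.9% and 87.2% active in the other strains. Crybg3 had 7000 bp that were active in NZO/HlLtJ (100%), WSB/EiJ (91.4%) and NOD/ShiLtJ (85.7%) and at 0% in 129S1/SvImJ, A/J, CAST/EiJ and PWK/PhJ. Ptprg, a receptor tyrosine phosphatase gene, had 6400 bp, with A/J at 81.2% and 129S1/SvImJ at 0%. Wdfy1, an endosomal adaptor gene, also had 6400 bp, with WSB/EiJ at 68.8%, PWK/PhJ at 56.2% and CAST/EiJ at 43.8% and the rest at most at 3.12%. Gsr, the glutathione reductase gene, held one of the 5 longest segments, 4600 bp, which was active over 78.3% of its bins in NZO/HlLtJ and 69.6% in PWK/PhJ.

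Nlrp12, a NOD-like receptor of innate immunity, had 4 segments of 8200 bp in chr7:3219801-3236800. They were active over all bins in C57BL/6J, A/J and NOD/ShiLtJ, over 31.7% in PWK/PhJ, 29.3% in WSB/EiJ and 9.76% in NZO/HlLtJ, and over none in DBA/2J, 129S1/SvImJ and CAST/EiJ. One of these segments, chr7:3219801-3221200, covered Mir293, Mir294 and Mir295, the only miRNA hairpins of 1005 in the RefSeq table that any segment touched. They belong to a miRNA cluster known from embryonic stem cells. Their mature sequences follow, with bases 2 to 8, the seed, in capitals. The 3p arms of miR-294 and miR-295 share the seed AAGUGCU.
mmu-miR-293-5p: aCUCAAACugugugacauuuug
mmu-miR-293-3p: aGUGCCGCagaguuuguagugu
mmu-miR-294-5p: aCUCAAAAuggaggcccuaucu
mmu-miR-294-3p: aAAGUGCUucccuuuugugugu
mmu-miR-295-5p: aCUCAAAUguggggcacacuuc
mmu-miR-295-3p: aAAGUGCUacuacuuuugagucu
The segment over the hairpins was active in all bins of C57BL/6J, A/J and NOD/ShiLtJ, in 57.1% of those of NZO/HlLtJ and 28.6% of those of PWK/PhJ, and in none of DBA/2J, 129S1/SvImJ, CAST/EiJ and WSB/EiJ. The most frequent state there was 2 in C57BL/6J and 14 in DBA/2J. No RNA was measured in these files.

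**Figure D5:**
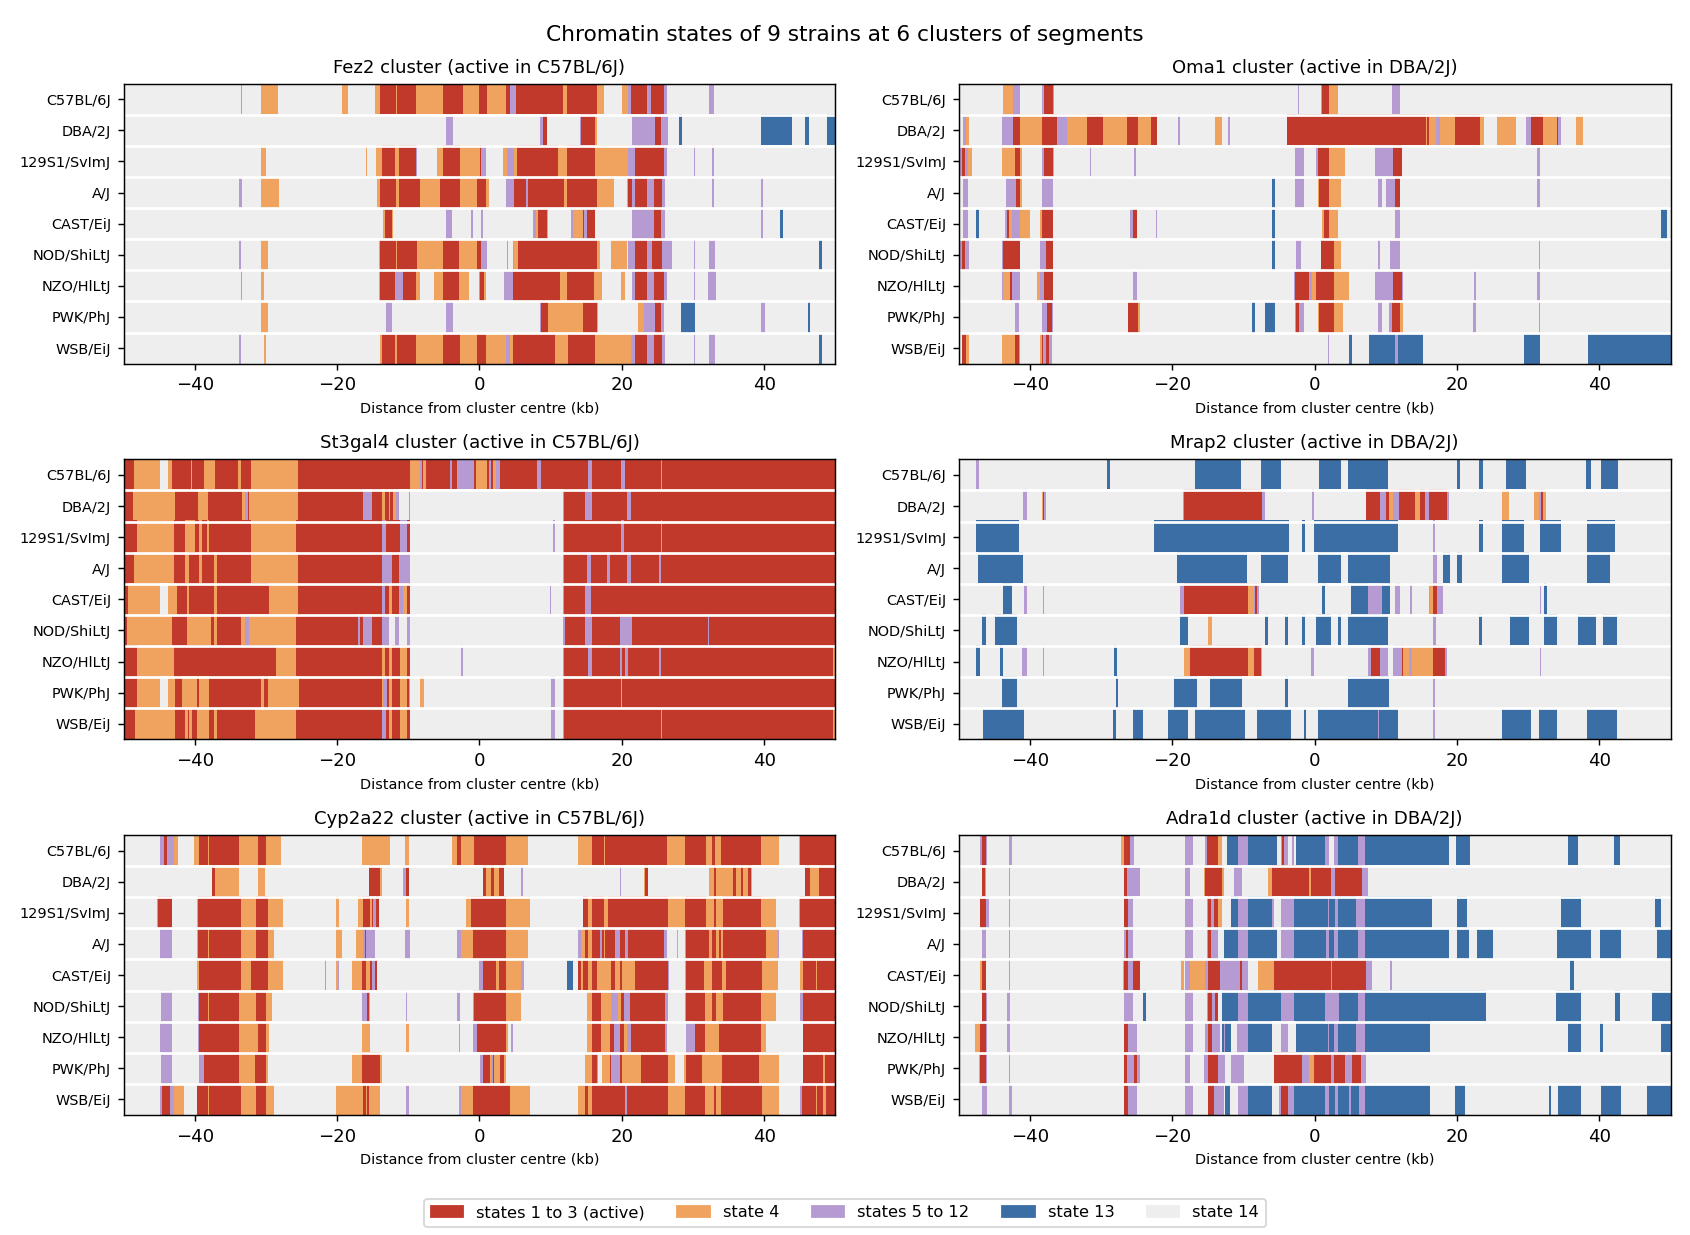
Each panel shows 9 strains (rows) over 100 kb around the centre of a group of segments, with distance in kb on the x axis and colour for the state class of each 200-bp bin. In the St3gal4 panel the middle is silent in the 8 strains other than C57BL/6J; in the Oma1 panel most strains share a short active block at the centre and DBA/2J alone has a long one; in the Cyp2a22 panel DBA/2J has the fewest active bins (7.61% of the group's whole span, against 39.1% in C57BL/6J); in the Adra1d panel state 13 covers much of the centre in C57BL/6J and none of it in DBA/2J.

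In the silent-to-active direction the largest group lay beside Oma1, a gene for a mitochondrial protease, with 8 segments of 24800 bp in chr4:103352401-103416400. Within the segments, where the rule sets DBA/2J at 100% and C57BL/6J at 0%, the highest other strain was NZO/HlLtJ at 10.5%. Over the whole span DBA/2J was active at 46.25%, C57BL/6J at 1.56% and NZO/HlLtJ at 8.75%. Around Mrap2, 4 segments of 17800 bp in chr9:87118001-87155000 included the longest segment of all, 11000 bp, in which 33 of the 55 bins were in state 13 in C57BL/6J. That segment lay 15236 bp from Mrap2. Over the 4 segments NZO/HlLtJ was active at 69.7% and CAST/EiJ at 55.1%, and the other strains besides DBA/2J at 0%. Over the 3 segments of 6800 bp that touched Mrap2 itself, NZO/HlLtJ was at 47.1% and CAST/EiJ at 8.82%. A group of 6 segments of 14600 bp at chr17:44051001-44071400 touched no protein-coding gene and was active over 43.8% of the bins in WSB/EiJ and 34.2% in NOD/ShiLtJ.

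Adra1d, the alpha-1D adrenergic receptor gene, had the most silent-to-active sequence of any protein-coding gene, 8200 bp in 4 segments at chr2:131550401-131562400. The segments were in state 13 most often in C57BL/6J, 129S1/SvImJ, A/J, NOD/ShiLtJ, NZO/HlLtJ and WSB/EiJ, which had 0% active bins, and in state 2 in DBA/2J (100% active), CAST/EiJ (97.6%) and PWK/PhJ (68.3%). The rule sets the active shares of C57BL/6J and DBA/2J there. Over the whole span DBA/2J was at 93.3% and C57BL/6J at 1.67%. Adrb3, the beta-3 adrenergic receptor gene, lay 556 bp from a segment of 4200 bp that was active in DBA/2J alone of the 9 strains. Adcyap1r1, the receptor gene of the peptide PACAP, had 5400 bp that were silent in C57BL/6J and WSB/EiJ and between 92.6% and 100% active in the other 7 strains.

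Pik3ap1, an adaptor of phosphoinositide 3-kinase signalling, had 5600 bp, over which the strains besides C57BL/6J and DBA/2J were active between 42.9% and 89.3%. Sntg2, a syntrophin gene, had 8000 bp in 6 segments, active over 82.5% in 129S1/SvImJ, 80.0% in NZO/HlLtJ, 67.5% in A/J, 50% in NOD/ShiLtJ and 15% in WSB/EiJ and silent in C57BL/6J, CAST/EiJ and PWK/PhJ. Rhbdf1, an inactive rhomboid that regulates the shedding of signalling proteins, shared its segments with A/J alone (82.4%). Reln, the reelin gene and a stellate cell marker of the panels, had 6000 bp that were active over 90.0% in NOD/ShiLtJ and 40.0% to 56.7% in 129S1/SvImJ, A/J, NZO/HlLtJ and WSB/EiJ. Eif4g3, a translation initiation factor gene, had 6600 bp, with A/J at 63.6% and WSB/EiJ at 48.5%. Tmem108 had 1 segment of 5400 bp that was also active in WSB/EiJ (85.2%) and NZO/HlLtJ (70.4%), and at 0% in 129S1/SvImJ, A/J, CAST/EiJ, NOD/ShiLtJ and PWK/PhJ. Tmc5 had 1 of 5200 bp that was also active in PWK/PhJ (100%) and in CAST/EiJ over 30.8%. Rpap3, a chaperone cofactor gene, had 5200 bp, with NOD/ShiLtJ at 96.2% and NZO/HlLtJ at 88.5%. Ttc34, the last of the 12 genes with the most silent-to-active sequence, had 4800 bp, in which state 13 was the most frequent state in C57BL/6J, and 129S1/SvImJ stood at 83.3%.

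Gene panels were counted against the background of 1.32% and 1.09%. None of 24 hepatocyte-expressed genes, 18 ubiquitously expressed genes, 23 Kupffer cell and leukocyte genes or 18 endothelial genes was touched in either direction. Of 77 cytochrome P450 genes, 2 were touched active-to-silent (Cyp2a22 and Cyp2c39) and 1 silent-to-active (Cyp46a1). Of 96 conjugation, transport and xenobiotic sensor genes, 2 were touched in each direction: Fmo4 and Ahr, and Fmo2 and Tpmt. Of 75 acute phase, complement and coagulation genes, F5 (a clotting factor) and Mug2 were touched active-to-silent and none silent-to-active. Of 92 lipid and glucose genes, only Pfkfb3, a regulator of glycolysis, was touched, silent-to-active. Of 58 interferon and MHC genes, H2-Eb1, of 24 developmental regulators, Pax7, both active-to-silent, and of 20 bile duct and stellate cell genes, Reln, silent-to-active, were the only ones. Of 40 hepatocyte genes known to differ between the sexes, Fmo2 was touched. Of 18 known variant loci of this pair, Ahr and Nlrp12 (11.1%) were touched active-to-silent and Glo1 (5.56%) silent-to-active, the highest shares of any panel, beside 1.32% and 1.09% over all genes. Each panel count is of 0 to 2 genes and was not tested, and the background was not matched for gene length.

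At Ahr, the receptor of dioxin, for which C57BL/6J and DBA/2J carry alleles of different affinity, a 1000-bp segment (chr12:35525201-35526200) was in state 2 in C57BL/6J and state 14 in DBA/2J, and in the other strains at most 40.0% of its bins were active. At Glo1, the glyoxalase gene, which is known to lie in a duplicated region in some strains including DBA/2J, a 1000-bp segment (chr17:30600001-30601000) was active in DBA/2J, silent in C57BL/6J and at most 40.0% active elsewhere. At Fmo2 a 3200-bp segment was active in DBA/2J, PWK/PhJ (100%), WSB/EiJ (87.5%) and CAST/EiJ (56.2%), and at most 6.25% in the remaining strains. At Tpmt, the thiopurine methyltransferase gene, a 1000-bp segment was silent in C57BL/6J and 100% active in 129S1/SvImJ, A/J, CAST/EiJ, DBA/2J, NOD/ShiLtJ and NZO/HlLtJ. At Pax7 a 1600-bp segment was in state 2 in C57BL/6J and mostly in state 13 in DBA/2J, CAST/EiJ and WSB/EiJ and state 14 in PWK/PhJ. It was also active in 129S1/SvImJ and NOD/ShiLtJ (100%), A/J (87.5%) and NZO/HlLtJ (62.5%). At H2-Eb1, an MHC class II gene, a 1000-bp segment was silent in DBA/2J and NZO/HlLtJ at 0% and active over 40.0% to 100% elsewhere. At F5 a 1000-bp segment was silent in DBA/2J and PWK/PhJ and 40.0% to 100% active elsewhere. Mug2, whose family has close copies, had 2600 bp at which every strain but C57BL/6J was below 50% (PWK/PhJ highest, 46.2%). At Cyp46a1, a brain cholesterol hydroxylase gene, a 2000-bp segment was active in DBA/2J, CAST/EiJ, NOD/ShiLtJ and PWK/PhJ (100%) and A/J (80.0%) and at 0% in the rest. At Pfkfb3 a 1000-bp segment was active over 60.0% in A/J, 40.0% in WSB/EiJ and 0% in the other 5 besides DBA/2J and C57BL/6J.

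Outside complete exchanges, the panels differed in how often the state near a start changed at all. Within 1 kb of starts, 20.2% of 192615 bins at all protein-coding genes differed between the strains. The share was 6.11% at hepatocyte-expressed genes and 13.2% at ubiquitous genes, 15.5% at developmental regulators, 15.7% at lipid and glucose genes and 18.3% at conjugation and transport genes. It was 22.6% at acute phase genes, 23.1% at cytochrome P450 genes, 24.9% at interferon and MHC genes, 29.0% at sex-biased genes and 32% at bile duct and stellate cell genes, 15.1% at the known variant loci, 23.4% at Kupffer cell and leukocyte genes and 37.1% at endothelial genes. At cytochrome P450 genes state 1 held 55.1% of these bins in C57BL/6J and 48.1% in DBA/2J, and state 3 held 12.2% and 19.6%. State 1 was also lower and state 3 higher in DBA/2J over all protein-coding genes, where state 1 held 25.8% and 23.1% and state 3 held 15.2% and 16.6%. In the same order of strains, state 3 held 21.8% and 29.1% at acute phase genes and 9.25% and 15.7% at sex-biased genes. The bins of a panel share genes and libraries, and no test was made of these shares.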

How the data were processed

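The 26 libraries of C57BL/6J and DBA/2J and those of the other 7 strains were grouped by the strain named in the labels. The authors' deposited files give chromatin state intervals, a category from 1 to 14 and not a count, signal or score. Per the submitters' processing notes the build is mm10, and FastQC 0.11.5 and MACS 1.4.2 are named with no role. The segmentation tool, the aligner and how mice were combined are not given in the sources used here.

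Intervals were written as 200-bp bins. Genes and start sites came from RefSeq tables of GRCm38.p6, with 20665 protein-coding genes on chromosomes 1 to 19, of which 16457 had a start site. Start sites on chromosome 18 were not analysed here. A planned comparison by gene spans was kept, and start sites were added after the tables had been seen. Named genes are the 12 per direction with the most bases in segments, those at the 5 longest segments and touched panel genes. Genes with starts in segments, the groups of segments at Oma1, St3gal5 and others, and the segments named for a single strain were added after the values were seen. Members and panels were chosen with earlier results of these data known.

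A strain is 1 value. Tests were exact two-sided sign-flip permutations over 7 strains (128 patterns), whose p-values measure only the spread between strains, which share ancestry. The code ran on Python 3.11.15 with matplotlib 3.10.9 for plots, scipy 1.17.1, pandas 2.3.3 and numpy 2.4.6, and it was tested on simulated data. Alternatives changed the active and silent states, length, gaps, windows and strains.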

Additional observations from a re-analysis of the deposited data

How the results depend on the processing

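The deposited segmentations allow no check between mice. No paired analysis was possible because each strain has a single segmentation, in which its mice carry no values of their own.

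Kappa between C57BL/6J and DBA/2J was 0.607 in bins outside state 14 in at least 1 of the 9 strains, 0.688 with 1000-bp bins, 0.740 with states 13 and 14 merged, 0.738 with chromosome X and 0.689 without single-bin segments. Segments numbered 11386 active-to-silent and 6448 silent-to-active with state 4 as active, 106 and 121 with states 1 and 3 alone, 1414 and 1163 from 600 bp, and 119 and 103 from 2 kb. Genes touched numbered 3351 and 2635, 68 and 66, 599 and 450, and 71 and 54 under the same settings. They numbered 36 and 33 at gene ends, and 21 and 13 within 1 kb of a start site, a setting chosen after seeing the data. State 14 alone as silent, gaps of 1 bin, chromosome X and spans with no flank left every count of segments and genes they apply to within 1.5 times. Active-to-silent segments outnumbered the reverse except with states 1 and 3 alone.

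Leaving out 1 strain at a time, the difference in kappa ranged from 0.00690 to 0.0118. It passed the threshold only without NZO/HlLtJ, the 1 strain of opposite sign (exact permutation p = 0.0312). That p is fixed once all remaining signs are the same. The difference in kappa was 0.0108 in the bins outside state 14 (exact permutation p = 0.0625). It was 0.00128 with states 13 and 14 merged (exact permutation p = 0.797). The difference in active share ranged from 4.44 to 5.87 points, was 8.56 points from 2 kb and was 1.11 points with state 4 as active (exact permutation p = 0.562). Why these settings moved the values was not tested.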

Other observations

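Of the 6 St3gal genes, which encode alpha-2,3-sialyltransferases that cap glycans with sialic acid, 2 (St3gal4 and St3gal6) were touched by active-to-silent segments and 0 by silent-to-active segments, beside 1.32% and 1.09% of all protein-coding genes. The family was picked after the values had been seen, so its count supports nothing. The strains active at the 2 genes differed. At St3gal4 C57BL/6J was alone, and the group at St3gal6 (chr16:58509801-58539800, 4 segments, 7200 bp) was active over 97.2% of its bins in 129S1/SvImJ, 77.8% in WSB/EiJ, 63.9% in NZO/HlLtJ and 41.7% in NOD/ShiLtJ, and over none in A/J, CAST/EiJ, PWK/PhJ and DBA/2J.

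The exchange ran both ways inside some genes. Of the 14 genes touched in both directions, Sox5, a transcription factor gene of 953863 bp, had 2 active-to-silent segments and 1 silent-to-active segment.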
